A study of Drosophila melanogaster with 27 samples.

Results

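The genes described here code for structural proteins of the insect cuticle. They were chosen by gene symbol among the probe sets that the platform annotation assigns to 1 gene: the Cpr genes, the Tweedle (Twdl) genes, the larval cuticle protein (Lcp) genes, the Ccp84A genes, the pupal cuticle protein gene Pcp and the ecdysone-dependent genes Edg78E, Edg84A and Edg91. The rule found 104 genes, with 106 probe sets, of the 11982 genes that have a probe set of their own on the array. The probe set with the highest mean was used for each gene. Of the 104 genes, 66 were Cpr, 24 Twdl, 7 Lcp, 3 Ccp84A, 3 Edg and 1 Pcp, and 39 lay on chromosome arm 3L, 28 on 3R, 22 on 2R, 7 on 2L and 8 on X.

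Each of 27 Affymetrix Drosophila Genome 2.0 arrays held RNA from a pool of whole *Drosophila melanogaster* males. There were 4 inbred lines, numbered 5, 7, 12 and 15 in the labels, each descending from 1 pair taken from a large outbred population and split into sublines that were kept by brother-sister mating for 8 generations, to an average inbreeding coefficient of about 0.7. In each line, 3 sublines with the strongest inbreeding depression (most depressed, +D) and 3 with the weakest (least depressed, -D) were measured, where depression is a low number of progeny per female, so that the 8 inbred groups hold 24 arrays. The most depressed were chosen among sublines with enough flies left to analyse. The outbred control gave 3 further arrays and comes from 1 population, so its spread is not a spread between populations. The labels give no treatment, no transgene and no age of the adults.

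The cuticle is secreted by the epidermis as layers of chitin fibres embedded in protein, and it is then hardened and darkened by cross-linking. Most Cpr proteins share the Rebers and Riddiford domain, which binds chitin, and the genes of the family are used in different sets by the larva, the pupa and the adult. Epidermal cells make new cuticle before each moult and go on adding layers to the inner cuticle of the young adult after it has left the pupal case. The individual role of most of the genes below is not known beyond this family membership.

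Values are log2 expression after the normalization of the authors, so that a difference of 1 is a change of 2-fold. The brightness of a probe set depends on its probes as well as on its transcript, so levels are compared between arrays and not between genes. A maximum of at least 7 over the arrays was taken as detected. By this measure 26 of the 104 genes were detected, 24 of them Cpr, and 18 had a mean of at least 7. The other 78 stayed under 7 in every array, and 65 of these under 6. Just inside the limit lay Cpr92A with a maximum of 7.02, TwdlT with 7.18 and Cpr49Ag with 7.45, and these 3 passed it in control arrays only. Just outside lay Twdlalpha with 6.91, Cpr73D with 6.76 and Cpr56F with 6.61. Lcp65Aa was the only detected Lcp gene and TwdlT the only detected Twdl gene, while no Ccp84A or Edg gene and not Pcp reached 7.

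Array medians over all probe sets lay between 6.32 and 6.54. Transcripts of the male glands were high on every array, with medians over the lists between 10.52 and 11.21 for testis and between 12.36 and 13.18 for the accessory gland. A list of 18 yolk and eggshell genes, made by females, had array medians from 4.61 to 4.80 in the control, from 4.10 to 5.35 in the least depressed and from 4.22 to 8.51 in the most depressed sublines. In 3 most depressed arrays, +D replicate 2 of line 7, +D replicate 3 of line 5 and +D replicate 2 of line 15, the yolk protein gene Yp1 read 12.12, 12.01 and 11.78, against a median of 5.24 over the inbred arrays. These arrays stand apart from their label as males, and counts are given below also without them.

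More of the cuticle protein genes were lower than higher in the inbred sublines when set against the outbred control. In limma with Benjamini-Hochberg adjustment over all 18769 probe sets, 37 of the 104 genes passed an adjusted p of 0.05, and 33 of them were lower and 4 higher in the inbred sublines. Of all probe sets, 11.6% were called lower and 16.8% higher, against 31.7% and 3.85% of the cuticle protein genes. Among the 18 genes with a mean of at least 7, 13 were lower and 3 higher. Of all probe sets with such a mean, 40.2% were called in either direction, 12.6% lower and 27.6% higher. The mean is over all 27 arrays, and 1 of the 18, Cpr76Bd, has an inbred mean under 7 (6.88). The median difference was -1.11 over these 18 genes, against 0.11 over all probe sets with a mean of at least 7. It was -0.14 over the 104, against 0.02 over all probe sets. Less RNA per cell and fewer cells that make the RNA cannot be told apart in whole flies. Of the single arrays left out in turn, control replicate 1 lowered the count the most, to 22, of which 19 were lower. The count was 21, with 18 lower, among probe sets with a maximum of at least 7.18, which hold 24 of the 104 genes. Of these genes, Cpr49Ag and Cpr50Cb reached that maximum in control arrays only, so the filter favours genes high in the control. The share of all such probe sets that passed is not given here. The count was 33 without the 3 arrays with eggshell transcripts. It was 31 when the 2 least depressed arrays with the next highest yolk or eggshell levels were left out as well.

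Cpr97Ea had the largest difference of the 104 genes. The control arrays read 11.55, 10.93 and 10.56. In line 5 the most depressed sublines read 5.80, 7.50 and 5.52 and the least depressed 5.67, 6.16 and 7.297. In line 7 the values were 5.50, 8.91 and 7.86 for the most and 6.74, 5.68 and 7.55 for the least depressed sublines. Every one of these 12 values was thus below the lowest control. The same was true of line 12, with 6.81, 8.54 and 8.43 against 7.48, 7.25 and 7.55, and of line 15, with 9.95, 4.83 and 5.36 against 7.41, 6.83 and 7.74, the most depressed sublines being given first. The mean of the 8 inbred groups was 7.02 against 11.01 ± 0.50 (SD, n = 3) in the control, a difference of -4.00 ± 0.72 (SE), or 16-fold (limma, adjusted p = 2.63e-04).

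Cpr97Eb, also on chromosome arm 3R and named for the same band, was lower as well. The control read 12.34, 11.87 and 11.28, and the inbred arrays ranged from 6.71 through a median of 8.63 to 10.75, with a difference of -3.26 ± 0.61 (SE; limma, adjusted p = 3.71e-04). Cpr100A read 13.16, 12.96 and 12.34 in the control and from 7.37 through 9.73 to 11.88 in the inbred sublines, a difference of -3.24 ± 0.69 (SE; limma, adjusted p = 0.0013). In both genes no inbred array reached the lowest control.

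Cpr62Bc was less uniform. Its control values were 12.72, 12.14 and 11.66, while the inbred arrays ran from 5.71 through 8.90 to 11.97, so that 23 of 24 lay below all controls and +D replicate 1 of line 15 lay inside the control range. Its difference was -3.48 ± 0.98 (SE; limma, adjusted p = 0.0103), and it was not past the threshold without control replicate 1 (-3.21, adjusted p = 0.0728). Cpr92F showed the same array within the control range, at 12.71 against a control of 12.99, 12.92 and 12.39. The rest of its inbred arrays went down to 6.76, and the difference was -2.63 ± 0.90 (SE; limma, adjusted p = 0.0321). Over the settings tried, the adjusted p of Cpr92F went up to 0.144.

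Cpr49Ah and Cpr50Cb were at low levels in most inbred sublines. Cpr49Ah read 9.09, 8.81 and 8.18 in the control and from 3.98 through 5.42 to 8.31 in the inbred arrays, where only +D replicate 1 of line 15 exceeded the lowest control. The difference was -3.06 ± 0.67 (SE; limma, adjusted p = 0.00166). Cpr50Cb read 8.90, 7.72 and 7.80 in the control and from 4.24 through 5.17 to 7.13 in the inbred arrays, with no overlap and a difference of -2.85 ± 0.41 (SE; limma, adjusted p = 2.76e-05). Cpr64Aa varied little among the controls, which read 8.58, 8.43 and 8.26. The inbred arrays ran from 5.20 through 5.63 to 7.63, and the difference was -2.55 ± 0.33 (SE; limma, adjusted p = 7.76e-06).

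**Figure D1:**
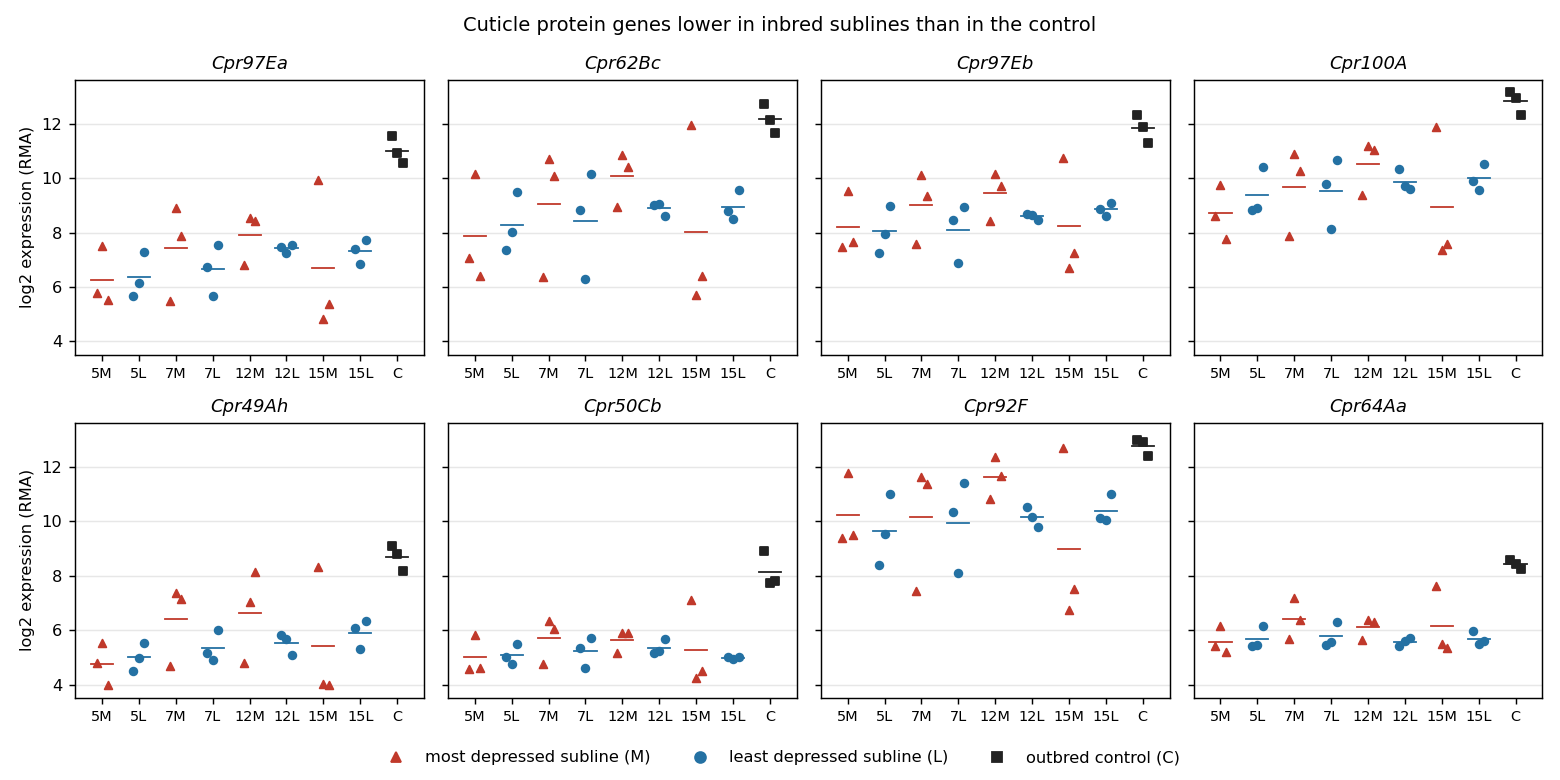
Log2 expression (y axis) of 8 cuticle protein genes in the 27 arrays by group (x axis: line number with M for most and L for least depressed sublines, and C for the outbred control). Points are arrays and horizontal lines are group means of 3 arrays. In Cpr97Ea, Cpr97Eb, Cpr100A, Cpr50Cb and Cpr64Aa all 3 control arrays lie above all 24 inbred arrays.

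Other bright members fell by less. Cpr49Ae, the brightest of all, read 13.50, 13.45 and 13.26 in the control and from 10.40 through 12.08 to 13.22 in the inbred arrays, a difference of -1.52 ± 0.45 (SE; limma, adjusted p = 0.0143). Cpr49Ab had control values from 11.81 to 11.86 and inbred values from 10.27 to 11.55, with a difference of -1.08 ± 0.20 (SE; limma, adjusted p = 3.55e-04). Neither gene had an inbred array within the control range. Cpr62Bb differed by -1.13 (adjusted p = 0.00294), Cpr67B by -0.54 (adjusted p = 0.00747) and Lcp65Aa, the larval cuticle protein gene with a detectable level, by -0.38 (limma, adjusted p = 0.00845). Without an array of the whole set, or under another setting, the adjusted p of Cpr67B went up to 0.103 and that of Lcp65Aa to 0.0761.

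Among detected genes the differences of Cpr76Bd (-2.13), Cpr47Ea (-2.07), Cpr72Ec (-1.73), Cpr49Ag (-1.50), Cpr92A (-1.30) and Cpr47Ef (-0.63) also passed the threshold. Cpr72Ec was above its highest control (10.01) in +D replicate 2 of line 5 (10.25) and +D replicate 1 of line 7 (10.36). It did not pass for the most depressed sublines alone (-1.32). Cpr47Ea was above its highest control (8.67) in +D replicate 1 of line 15 (8.94). TwdlT (-0.35, adjusted p = 0.262), Cpr49Ac (0.01, adjusted p = 0.996), Cpr66D (0.12, adjusted p = 0.764) and Cpr47Ee (0.20, adjusted p = 0.376) did not. Below the detection limit, 15 of the 78 genes passed, 14 lower and 1 higher. Of all probe sets, bright and dim, 11.6% were called lower and 16.8% higher. The largest falls among the dim genes were those of Cpr49Aa (-1.06), Cpr56F (-0.77), Cpr64Ac (-0.72) and Cpr30B (-0.52). In these dim genes background may compress a difference on the log2 scale, so its size may not be that of a change in RNA, which was not tested.

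All 3 control arrays lay above all 24 inbred arrays in 14 of the 104 genes (13.5%), where 3.82% of all probe sets did so. Beside the genes named above for this they were Cpr62Bb, Cpr76Bd, Cpr49Ag, Cpr56F, Cpr64Ac, Cpr49Aa and Cpr30B. The controls lay below all inbred arrays in 3 of the 104 genes, against 5.25% of all probe sets.

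The Twdl family showed little of this, but TwdlT was its only detected gene, and differences in dim genes may be compressed. Of its 24 genes 1 was lower in the inbred sublines, TwdlM (-0.38, adjusted p = 0.00106), and TwdlM was at a mean of 4.42, below detection. Differences in the family ran from -0.43 to 0.19. Of the other families, 2 of 7 Lcp genes (28.6%), 1 of 3 Ccp84A genes, 2 of 3 Edg genes and Pcp passed the threshold, all lower and, apart from Lcp65Aa, all below detection. Of all probe sets, 28.4% passed in either direction and 11.6% were called lower. With 7 genes or fewer in each of these families, no result is read from their shares.

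Cuticle protein genes lie in clusters. Of the 8 genes named Cpr49A on 2R, 5 were lower and none higher, where 11.6% of all probe sets were called lower. The 7 of these that are close neighbours, Cpr49Aa to Cpr49Ag, held 4 of the 5. In Cpr64A 3 of 4 and in Cpr62B 2 of 3 were lower. In Cpr47E 2 of 7 were lower. A run of 8 Lcp and Cpr genes at 65A held 2 that were lower and 1, Cpr65Au, that was higher. Other clusters held 1 changed gene among neighbours that did not pass: Cpr76Bd was the only one of 4 in Cpr76B and Cpr72Ec the only one of 3 in Cpr72E. Of the 3 neighbours Cpr67Fa1, Cpr67Fa2 and Cpr67Fb, only Cpr67Fb passed, and it was higher. None of the 3 Cpr65E and none of the 3 Cpr78C genes passed. At an unadjusted p under 0.05 (limma) there were 0 of 3 and 1 of 3, beside 7280 of 18769 probe sets. A run of 12 Twdl genes on 3R held 1 that passed, TwdlM.

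**Figure D2:**
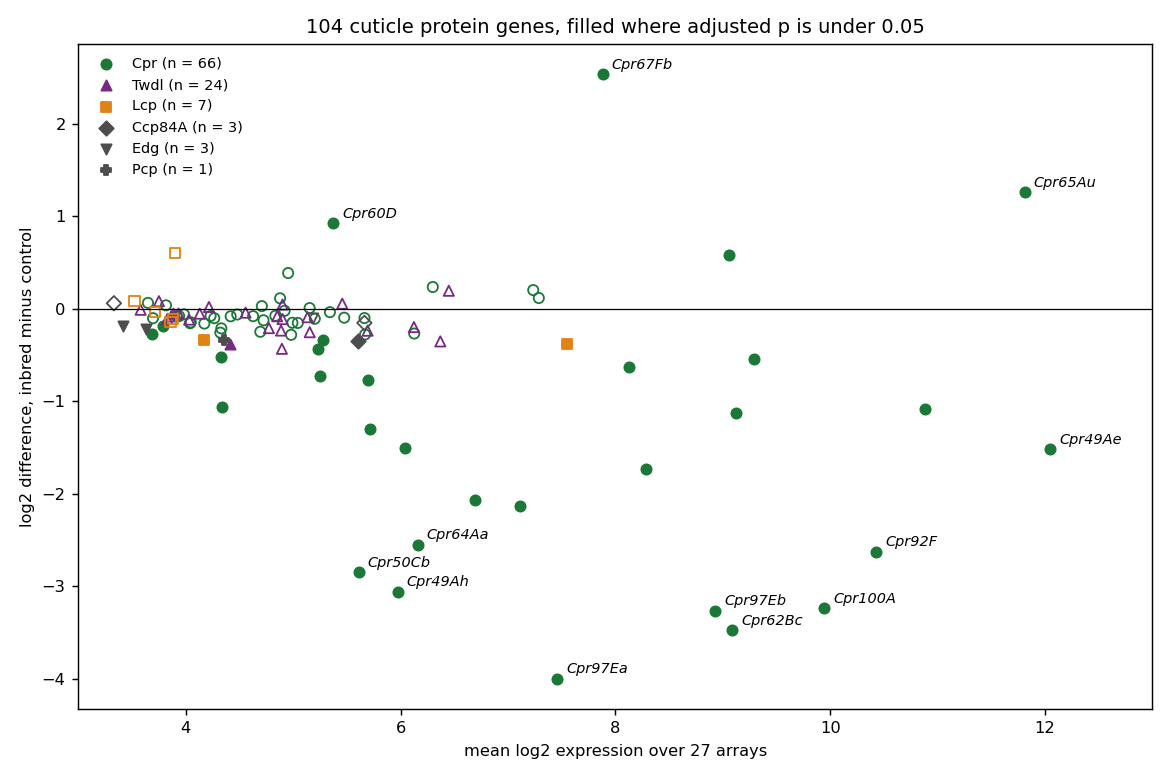
Difference in log2 expression between the mean of the 8 inbred groups and the control (y axis, below 0 when lower in the inbred sublines) against the mean log2 expression over 27 arrays (x axis) for the 104 genes. Filled symbols passed an adjusted p of 0.05 in limma, and shapes and colours mark the families. The falls of over 2 log2 units are all of Cpr genes, and the Twdl genes, of which only TwdlT was detected, stay within -0.43 and 0.19.

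A few genes went the other way, and Cpr67Fb was the first among them. The control arrays read 5.96, 5.60 and 5.33. The most depressed sublines read 8.36, 8.67 and 8.52 in line 5, 9.67, 8.80 and 8.76 in line 7, 8.70, 7.96 and 9.09 in line 12, and 8.30, 9.87 and 9.26 in line 15. The least depressed read 8.20, 7.32 and 7.04 in line 5, 7.82, 8.74 and 7.24 in line 7, 7.00, 7.56 and 7.19 in line 12, and 7.19, 7.67 and 7.02 in line 15. All inbred arrays were above all controls, and in each line every most depressed subline was above every least depressed one. The inbred mean exceeded the control by 2.54 ± 0.29 (SE), or 5.80-fold (limma, adjusted p = 2.27e-06).

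Cpr65Au, a bright member of the 65A cluster on 3L, was the other detected gene above the control on every inbred array. Its control values were 10.95, 10.28 and 10.84, and the inbred arrays lay between 11.38 and 12.41, a difference of 1.26 ± 0.14 (SE), or 2.40-fold (limma, adjusted p = 9.94e-07). Cpr51A rose by 0.58 ± 0.21 (SE; limma, adjusted p = 0.0374), from control values between 8.46 and 8.65, and 21 of 24 inbred arrays lay above all controls. Its adjusted p went up to 0.140 under the alternatives. The dim Cpr60D rose by 0.93 ± 0.18 (SE; limma, adjusted p = 5.51e-04), with 23 of 24 inbred arrays above all controls. Lcp65Ag3, dimmer still, had every inbred array above the controls without passing (0.60, adjusted p = 0.0759), and 1 inbred array reached 5.94.

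**Figure D3:**
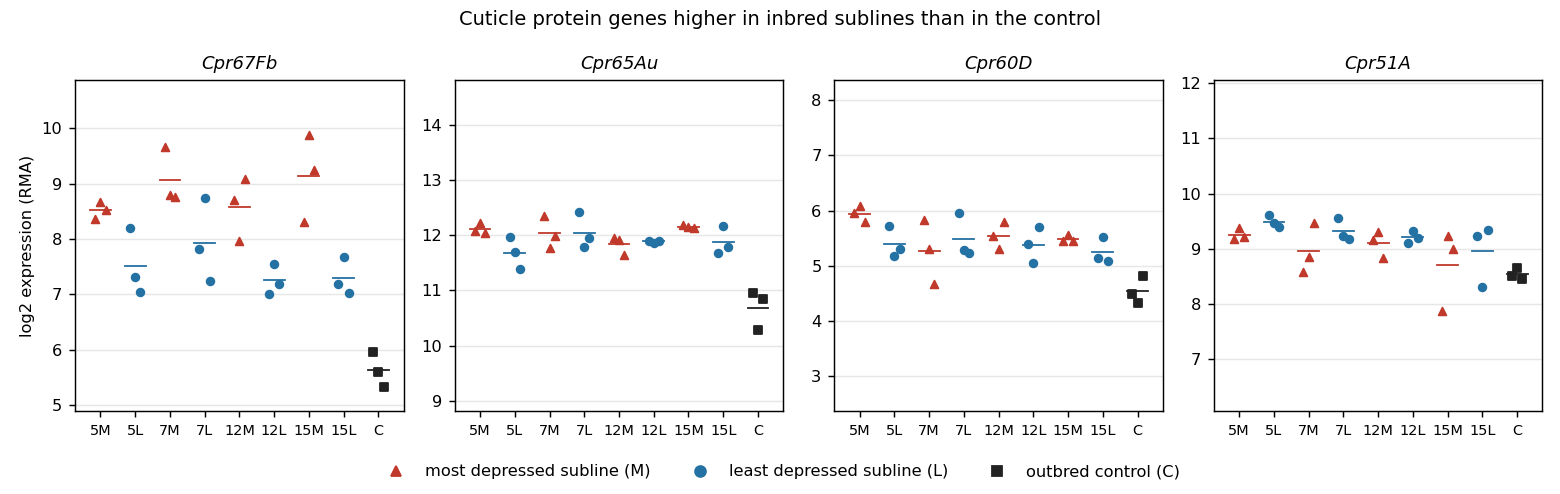
Log2 expression (y axis, each panel spanning 6 log2 units around its mean) of Cpr67Fb, Cpr65Au, Cpr60D and Cpr51A by group, with the same symbols as the plot of the lower genes. In Cpr67Fb the order control, least depressed, most depressed holds in every line, and in Cpr65Au all inbred arrays lie above all controls.

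The comparisons of the least and of the most depressed sublines with the control share the 3 control arrays and are given side by side only. For the least depressed, 40 of the 104 genes passed, 35 lower and 5 higher, with 12% of all probe sets lower and 17.3% higher. For the most depressed, 28 passed, 25 lower and 3 higher, with 9.71% lower and 14.2% higher. Cpr97Ea differed by -4.07 and -3.93, Cpr97Eb by -3.43 and -3.10, Cpr100A by -3.12 and -3.35, and Cpr64Aa by -2.74 and -2.36, the least depressed given first. Without control replicate 1 the counts were 23 and 17. With the set of sample codes, described below, as a covariate they were 15 and 27.

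The question the sampling was made for is the difference between depression levels within lines. Averaged over the 4 lines, 1 of the 104 genes differed between most and least depressed sublines, where 6.8% of all probe sets did so. It was Cpr67Fb, higher by 1.33 ± 0.20 (SE) in the most depressed sublines (limma, adjusted p = 1.62e-04), with no overlap between levels in any line. At an unadjusted p under 0.05 (limma) there were 8 of the 104 genes, a smaller share than the 3358 of all 18769 probe sets. The difference of Cpr67Fb lay between 1.24 and 1.53 over all settings tried, and it was 1.27 without the 3 arrays with eggshell transcripts.

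Within single lines almost nothing passed. In line 15 it was Cpr67Fb, by 1.85 ± 0.39 (SE; limma, adjusted p = 0.031), where 0.613% of all probe sets were called. The call was lost without any 1 of 5 of the 6 arrays of that line, +D replicates 2 and 3 and -D replicates 1, 2 and 3, with differences of Cpr67Fb from 1.49 to 2.04 and adjusted p from 0.0643 to 0.160. It was also lost without the 3 arrays with eggshell transcripts and, for Cpr67Fb fitted on only the 6 arrays of that line, at an adjusted p of 0.274. No cuticle protein gene passed in line 5 (0.671% of all probe sets), in line 7 (0.00533%) or in line 12 (1.51%). Nor did any pass the interaction of line and level (0.0213%). At an unadjusted p under 0.05 (limma) there were 10 of the 104 genes in line 5, beside 2048 of 18769 probe sets. There were 5 beside 1516 in line 7, 7 beside 2608 in line 12 and 3 beside 1289 for the interaction. In each case the share of the 104 genes was the smaller. In line 12, Cpr72Ec read 8.35, 7.22 and 8.30 in the most and 6.21, 6.05 and 5.64 in the least depressed sublines, without overlap but with an adjusted p of 0.127. In line 5, Cpr66D read 7.52, 7.95 and 7.66 against 6.51, 6.66 and 6.64, with an adjusted p of 0.124. A p that misses the threshold in 3 against 3 arrays does not show that the levels were alike.

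Between the 4 lines, 7 of the 104 genes differed (6.73%), close to the 7.36% of all probe sets. TwdlD was highest in line 7, with group means of 5.23 in the most and 5.30 in the least depressed sublines, and lowest in lines 5 and 15, with 4.70, 4.47, 4.62 and 4.50 (limma F test, adjusted p = 7.08e-04). Cpr11B was highest in line 12, at 5.59 and 5.80, and at 4.47 to 5.25 in the other inbred groups (adjusted p = 0.0124). The others were Cpr66Cb, TwdlW, Cpr30B, Lcp65Af and Cpr72Ec. Of the 7, only Cpr72Ec is detected, with group means from 5.97 in the least depressed sublines of line 12 to 9.51 in those of line 7 and 9.82 in the control. It was also the only one called when the test was kept to probe sets with a maximum of at least 7.18.

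Some of the genes that fell against the control varied widely among the inbred sublines themselves. Over the 24 inbred arrays Cpr97Ea spanned 5.12 log2 units, or 34.7-fold, Cpr62Bc 6.26 units, or 76.4-fold, and Cpr92F 5.96 units, or 62.1-fold, while the falling genes Lcp65Aa and Cpr67B spanned 0.72 and 1.08. Of the genes that rose, Cpr67Fb spanned 2.87 and Cpr65Au 1.03 units. Cpr49Ac, which did not pass against the control, spanned 4.92. The SD among sublines of the same group, pooled over the groups of a level, was 1.81 for Cpr97Ea in the most and 0.67 in the least depressed sublines, and 0.50 in the control. For Cpr62Bc it was 2.36, 1.16 and 0.53. Over the 18 genes with a mean of at least 7 the median of this SD was 0.60 in the most depressed, 0.37 in the least depressed and 0.22 in the control arrays, against 0.17, 0.14 and 0.11 over the 8131 probe sets of such a mean.

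The same few arrays stood at the ends. Among the 26 detected genes, +D replicate 1 of line 15 was the highest inbred array in 14, and replicate 2 of that group was the lowest in 9. Both are sublines of 1 line and 1 level. Replicate 2 is one of the arrays with eggshell transcripts (Cp15 at 11.00 and Yp1 at 11.78), and the part of these transcripts in the low cuticle values was not tested. Replicate 3 of the same group had a yolk and eggshell median of 4.22 and read 5.36 in Cpr97Ea, next to 4.83 in replicate 2.

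Part of the falling genes varied alike over the inbred arrays. Taking Cpr97Ea as the reference, because its difference was the largest, Pearson's r over the 24 inbred arrays was 0.970 for Cpr97Eb, 0.964 for Cpr62Bc, 0.961 for Cpr100A and 0.941 for Cpr76Bd. It was over 0.9 for 9 of the other 25 detected genes, Cpr49Ah, Cpr50Cb, Cpr47Ea, Cpr92F and Cpr49Ae being the rest. Among genes with a mean of at least 7 it was over 0.9 for 6 of the other 17, and among all 8131 probe sets with such a mean for 0.295%. Other falling genes had a low r, such as Cpr49Ag with 0.26 and Cpr67B with 0.44. With the group means removed r was 0.979 for Cpr97Eb and 0.979 for Cpr100A, and without the highest array, +D replicate 1 of line 15, it was 0.965 and 0.958. The points share their arrays and normalization, and no test was made. The value was below 0 for Cpr72Ec (-0.30), which fell against the control, and for Cpr67Fb (-0.34), Cpr65Au (-0.25) and Cpr51A (-0.34), which rose. With the group means removed, r for Cpr67Fb was -0.73.

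Some genes of chitin outside the family also had a high r with Cpr97Ea, and they were chosen after their values were seen. Gasp, a chitin-binding protein of the tracheal cuticle, had an r of 0.978, verm and serp, 2 chitin deacetylases, 0.976 and 0.951, kkv, the chitin synthase of the epidermis and trachea, 0.963, and the chitinase gene Cht7 0.947. Acp65Aa, the adult cuticle protein gene that the symbol rule leaves out, had 0.889 and was itself lower in the inbred sublines (-2.76; limma, adjusted p = 0.0353). An r in this range was also found for genes with no role in chitin, such as the muscle genes Mlc2 with 0.902 and fln with 0.893, and for genes without a name, such as CG8736 with 0.977. Other genes of chitin had a lower r, such as the chitinase genes Cht5 with 0.53 and Cht4 with 0.12. It was below 0 for Chs2 (-0.11), Cht9 (-0.47) and Idgf6 (-0.55), among others.

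**Figure D4:**
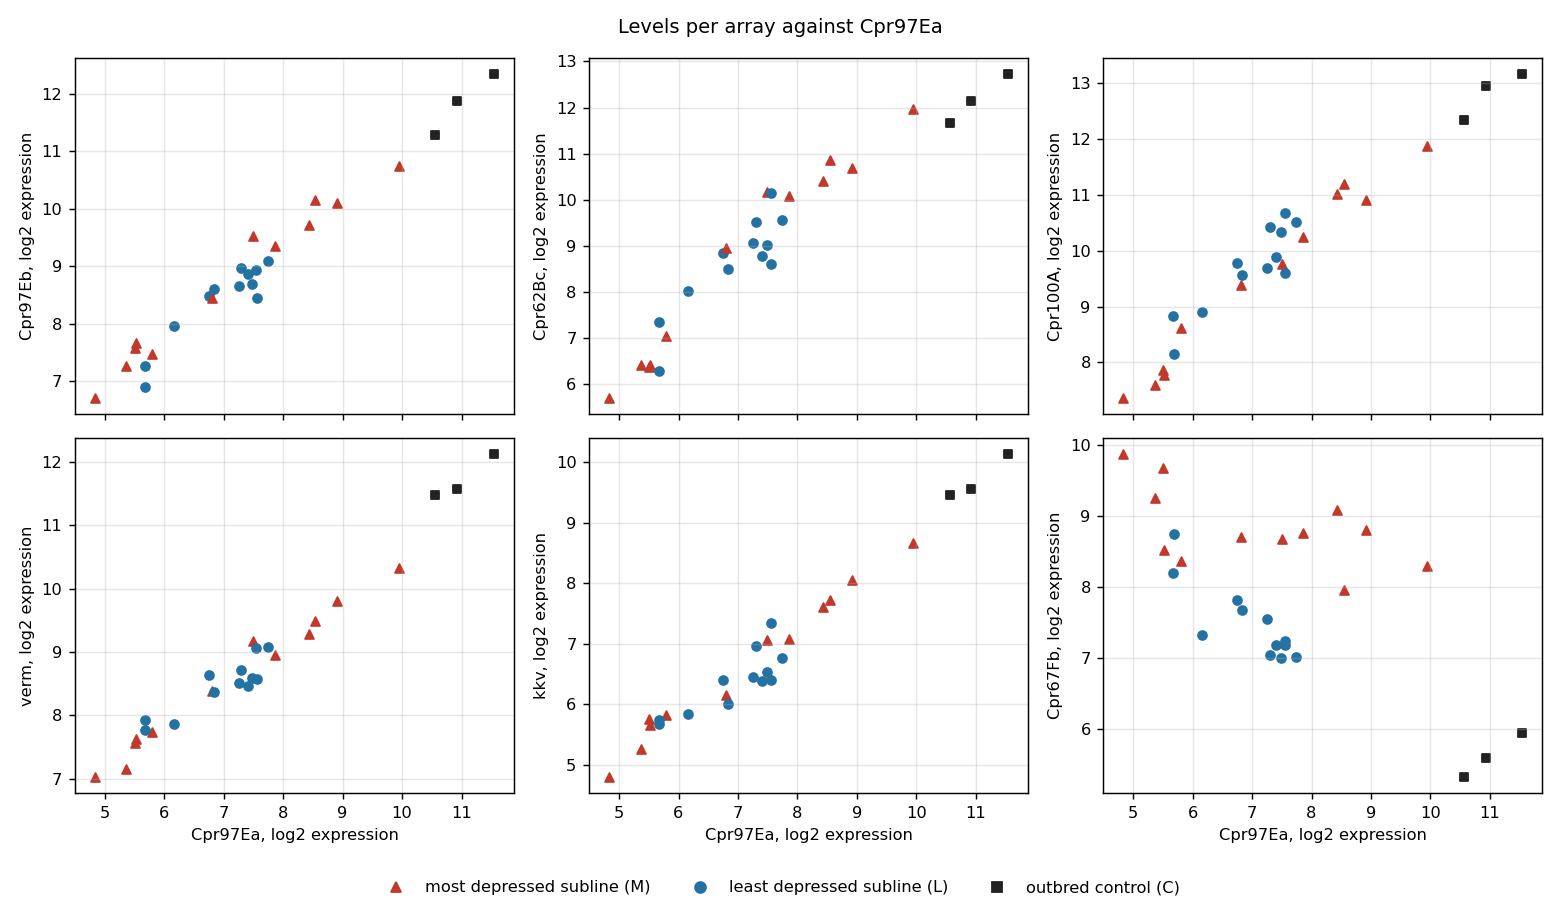
Log2 expression of Cpr97Eb, Cpr62Bc, Cpr100A, verm, kkv and Cpr67Fb (y axes) against that of Cpr97Ea (x axis), each point being 1 of 27 arrays. The first 5 genes rise with Cpr97Ea over the inbred arrays and on to the controls, while Cpr67Fb is lowest in the controls.

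Genes that make and process chitin changed in both directions. Of the 31 measured, 16 were lower (51.6%, against 11.6% of all probe sets) and 9 higher (against 16.8%) in the inbred sublines. The chitinase gene Cht5 was lower by the most, with control values between 9.90 and 10.62 and inbred values between 4.65 and 7.27 (-4.63 ± 0.28, SE; limma, adjusted p = 1.9e-10). The deacetylase gene verm differed by -3.23 ± 0.48 (SE) and the synthase gene kkv by -3.21 ± 0.54 (SE), from 9.46 to 10.14 in the control and from 4.80 to 8.66 in the inbred arrays. Cht6 differed by -2.98. On the other side were Cht9 (1.26), Cht4 (0.92), Chs2 (0.61), the chitin synthase of the gut, and growth factors of the Idgf group, relatives of chitinases, with 0.32 to 0.88. The lists of genes were written with earlier results of these data known.

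Of 25 genes of hardening and pigmentation, 11 were lower (44%, against 11.6% of all probe sets) and 6 higher (24%, against 16.8%). Lower were y, needed for black melanin (-2.58 ± 0.70, SE; adjusted p = 0.00791), its relative yellow-d2 (-2.62), e, which makes the precursor of tan cuticle (-2.04), and stw, the laccase that cross-links cuticle (-2.09 ± 0.36, SE; limma, adjusted p = 1.62e-04). The higher ones included the prophenoloxidase genes PPO1 and PPO2, made by blood cells. PPO1 read 4.72 to 4.95 in the control and 8.01 to 10.34 in the inbred arrays, a difference of 4.24 ± 0.32 (SE; limma, adjusted p = 1.13e-08), and PPO2 differed by 2.76.

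Of 28 genes of moulting and eclosion hormones, 5 were lower (17.9%, against 11.6% of all probe sets), led by the ecdysone-induced nuclear receptor gene Eip78C (-0.97) and by Burs, the hormone gene of tanning after eclosion (-0.75). None was higher, against 16.8% of all probe sets, and in all 17.9% were called beside 28.4% of all probe sets. The fat body proteins Fbp1 and Fbp2, which belong to the late larva, varied from 3.90 to 11.52 and from 4.59 to 11.40 over the inbred arrays, and did not differ from the control past the threshold (adjusted p = 0.364 and 0.227, limma). Their highest inbred array was +D replicate 1 of line 15, at 11.52 and 11.40, the array that was highest in 14 of 26 cuticle protein genes. Over the inbred arrays, r with Cpr97Ea was 0.769 for Fbp1 and 0.710 for Fbp2, and the part of these transcripts in the cuticle values was not tested. Lsp2, the larval serum protein, differed between levels by 1.37 ± 0.32 (SE) and was higher in the most depressed (limma, adjusted p = 0.00784). None of 18 yolk and eggshell genes passed against the control (limma; 0 at an unadjusted p under 0.05, beside 7280 of 18769 probe sets). Of 18 testis genes 3 were higher, or 16.7% beside the 16.8% of all probe sets, and of 15 accessory gland genes 10 were higher, or 66.7%.

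**Figure D5:**
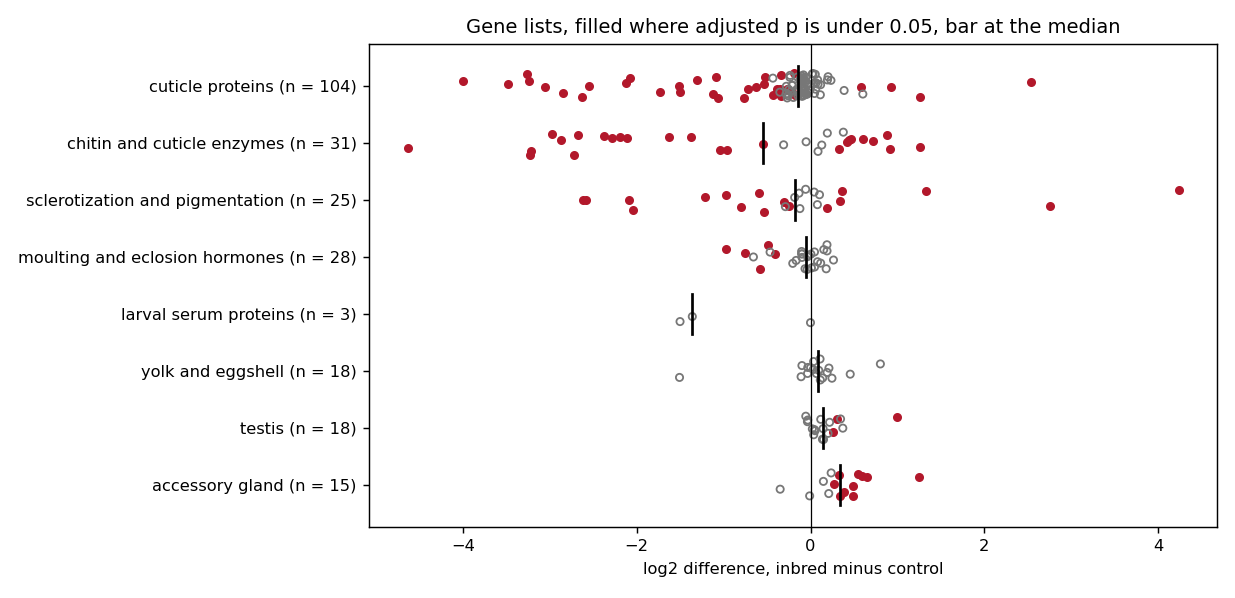
Difference in log2 expression between the inbred sublines and the control (x axis) for the genes of 8 lists (y axis, with the number of genes). Filled points passed an adjusted p of 0.05 in limma, open ones did not, black bars mark medians, and the vertical scatter within a list has no meaning. Cuticle proteins, chitin and cuticle enzymes, and sclerotization and pigmentation genes reach differences beyond -2, and yolk and eggshell genes have no filled point.

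The sample codes of the labels fall into 3 separate ranges of numbers and were divided here into 2 sets, which are a possible batch. The first set holds the lowest range, and the second takes the higher ranges together. A difference between the higher ranges was therefore not tested. Some codes join a number of the lowest range with a number of a higher range, and these arrays were put in the second set. All 3 controls, 11 of the 12 most depressed and 3 of the 12 least depressed arrays carry the first set. Cpr97Ea read from 4.83 to 9.95 in the 14 inbred arrays of the first set and from 5.52 to 7.55 in the 10 of the second. The controls read 10.56 and above. Whether the sets mark a difference in processing was not tested. In Cpr67Fb the corresponding ranges were 7.02 to 9.87 and 7.00 to 8.74 against at most 5.96, with medians of 8.69 and 7.44 in the 2 sets. With the set as a covariate, 23 of the 104 genes passed against the control, 20 lower and 3 higher, and 15 passed for the least depressed sublines alone. Cpr67Fb differed between levels in that fit, by 1.53 (limma, adjusted p = 0.0144). In line 12 all most depressed arrays carry the first set and all least depressed arrays the second. Set and level cannot be told apart within that line.

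Under the fit as given and 34 alternatives that keep all probe sets, 19 genes passed against the control each time, 16 lower and 3 higher. The 16 were Cpr97Ea, Cpr97Eb, Cpr100A, Cpr49Ah, Cpr50Cb, Cpr64Aa, Cpr76Bd, Cpr49Ag, Cpr92A, Cpr62Bb, Cpr49Ab, Cpr49Aa, Cpr56F, Cpr64Ac, Cpr30B and TwdlM, and the 3 were Cpr67Fb, Cpr65Au and Cpr60D.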

How the data were processed

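RNA of whole adult males was hybridised to 27 arrays, 3 for each of 8 inbred groups and 3 for the control, and groups and replicate numbers were taken from the sample labels. The authors adjusted the background, quantile normalized and summarized the probe sets with RMA (Partek 7.3.3 and affy), so the deposited values are log2 expression, with no filter on low values. RMA fits all arrays together, so a value depends on the other arrays in the table. Precision is limited by the number of arrays, which have no read depth. The 183 control probe sets of the maker were left out, which leaves 18769: 13647 with 1 gene, 402 with several and 4720 with none in the platform annotation. All 104 genes matched the RefSeq gene table by identifier with the same symbol, and it was used for chromosome arms and neighbours only. Sequences of these genes are not used here.

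Means of 9 groups were fitted with limma 3.58.1 in R 4.3.3 (trend in the variance prior, no other covariate) over all probe sets, and contrasts were called at a Benjamini-Hochberg adjusted p under 0.05. Each probe set has 1 spread for all groups, so a group that varies more than the rest gets too small an error. The fit was tested on simulated data. Tables were handled in Python 3.11.15 with pandas 2.3.3. Alternatives were a filter to probe sets with a maximum of at least 7.18 (the number the study kept by present calls), no trend, array weights, median centring, the set of sample codes, a replicate block, the table of the 24 inbred arrays, single lines alone, each array left out, and, chosen after seeing the data, the arrays with yolk or eggshell transcripts left out. The genes named were the 10 brightest, the 6 with the largest change or smallest p of each comparison past the threshold, the 6 with the largest SD, the 3 on each side of a maximum of 7, and the 4 largest of each other list. Other names were chosen after their values were seen. The genes and lists were chosen with earlier results of these data known.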

Additional observations from a re-analysis of the deposited data

How the results depend on the processing

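Counts of cuticle protein genes against the control kept their direction under every alternative, with 85.7% to 93.3% of those called lower in the inbred sublines. Nothing states that arrays of a number share an origin, and same-numbered arrays did not deviate together (mean r = -0.04 over 108 pairs, from -0.50 to 0.36). With the replicate block 36 passed for the inbred sublines against the control, 37 for the least and 28 for the most depressed, 1 between levels and 6 between lines. A filter to probe sets with a maximum of at least 7.18 kept 24 of the 104 genes. Of these, 21 passed for the inbred and 21 for the least depressed sublines. Under this filter 2 passed between levels (Cpr66D added, 0.50; limma, adjusted p = 0.0407) and 1 between lines. Fewer genes could pass, and Cpr49Ag and Cpr50Cb were kept through control arrays only. With the set of sample codes as a covariate the counts were 23 for the inbred and 15 for the least depressed sublines against the control. Array weights gave 48 and median centring 45 for the inbred sublines. Without the 3 arrays with eggshell transcripts 2 genes differed between levels (Cpr72Eb added, 0.18, adjusted p = 0.0495) and 0 in line 15. Without the 5 arrays, 0 differed in line 15 and 4 between lines. In line 12, 2 passed with array weights (Cpr72Ec and Cpr67Fb) and 1 with only the 6 arrays of the line (Cpr72Ec), and in line 15 none with only its 6 arrays. The cause of these changes was not tested.

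Leaving out 1 array at a time, the count ranged from 22 to 41 for the inbred, from 23 to 41 for the least and from 17 to 37 for the most depressed sublines against the control, each lowest without control replicate 1. It ranged from 1 to 2 between levels, 0 to 1 in lines 5, 12 and 15, 0 to 0 in line 7 and for the interaction, and 6 to 9 between lines. For the genes named by rule, 895 of the values under alternatives kept their call, 18 lost it and none reversed. Only 3 control arrays, of 1 population, stand behind each control value, and a dim probe set has a floor, so small differences below 7 may be compressed.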

Other observations

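Cpr49Ac varied between inbred sublines without differing from the control past the threshold. The gene, at a mean of 5.15 in the control, read 8.62 in -D replicate 1 and 8.38 in +D replicate 1 of line 15 and 8.17 in +D replicate 3 of line 12, with a median of 4.50 over the inbred arrays. In line 7, +D replicates 2 and 3 read 7.05 and 5.79. Within line 12 its most depressed sublines (5.99 to 8.17) did not overlap the least depressed (4.15 to 4.38), and the difference of 2.62 did not pass (limma, adjusted p = 0.187). The gene was chosen after its values were seen.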
